A study of Gallus gallus with 6 samples.

Results

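The genes described here act in tumor necrosis factor (TNF) receptor signaling and in necroptosis. They are 10 genes chosen by symbol from the 24356 genes listed for the jejunum of slow-growing Korat chickens (KR): TNFRSF1A and TRAF2 (receptor and adaptor), RIPK1 and FADD (death domain proteins), CASP8 and CFLAR (caspase 8 and its regulator), CYLD and TNFAIP3 (deubiquitinases), and MLKL and PGAM5 (placed downstream in necroptosis). All 10 were listed once, and all 10 passed the filter on low values that left 14282 genes for testing. The birds were Korat chickens, a cross between a Thai indigenous line and a broiler line, and were described by the study as males that were fasted before sampling at 10 weeks of age. The study ranked birds by feed conversion ratio (FCR, feed intake over body weight gain) and took 3 extreme birds from each end. The low-FCR birds are L1, L2 and L3, and the high-FCR birds are H1, H2 and H3. They received the same diets, no treatment separated the groups, and each library came from 1 bird. RNA was taken from the whole jejunal section, so the values are an average over all cells of the gut wall, and fewer cells of a type cannot be told apart from less RNA per cell.

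TNF receptor 1, encoded by TNFRSF1A, is a death receptor that gathers adaptors and kinases on its cytoplasmic tail when TNF binds. The kinase RIPK1 then either serves as a ubiquitin-bound scaffold for NF-kappaB signaling or joins FADD and caspase 8 in a death complex. In mammals, caspase 8 drives apoptosis and cuts the kinases of necroptosis, and where it is blocked, RIPK3 phosphorylates MLKL, which then ruptures the plasma membrane. In the mammalian intestine, loss of caspase 8 or FADD from the epithelium is known to cause necroptosis of epithelial cells.

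Total counts ranged from 10436038 to 11370043 per library, and 17057 to 17536 genes had a count. A count of 3 equals 0.249 to 0.304 CPM, the normalized and depth-scaled counts on which birds were compared. The 2 libraries that call for care are L1 and H3. L1 had 16140 counts on chromosome W, which females carry, and the other libraries had 48 to 80. None of the 10 genes lies on chromosome W or Z. H3 is placed with the high-FCR birds by its code, although the words of its title name the other group. The ileal marker FABP6 was at 4587 CPM in L1 and at 13.5 to 653 CPM in the other birds. SLC10A2, another ileal marker, was highest in L3, at 121 CPM, against 47.4 CPM in L1. Enterocyte markers were abundant in every bird, which does not by itself place a sample in the jejunum. The 7 listed enterocyte markers summed to 4638 to 9850 CPM in the low-FCR birds and 2378 to 7640 CPM in the high-FCR birds, while the 4 hepatocyte markers summed to 24.0 to 48.0 CPM in the low-FCR birds and 30.2 to 51.1 CPM in the high-FCR birds.

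MLKL was higher and TRAF2 lower in the low-FCR jejunum, and the other 8 genes differed by less than 0.4 on the log2 scale with overlapping groups. Each log2 fold change (log2 FC) sets low-FCR over high-FCR birds and carries its standard error (SE), and single values are given in the order L1, L2, L3 and H1, H2, H3. By edgeR's quasi-likelihood test with Benjamini-Hochberg adjustment, 0 of the 10 genes passed an adjusted p of 0.05, as did 0 of the 14282 genes tested (0%), and every one of the 10 had an adjusted p of 0.997. An unadjusted p under 0.05 was found for 2 of the 10 genes, MLKL and TRAF2, where 3.24% of all tested genes reached it. The same 2 genes were those in which the groups did not overlap, against 6.36% of all tested genes. MLKL lay above (2.97% of all tested genes did so) and TRAF2 below (3.40%). Of the 10 genes, 3 had a log2 FC above 0 and 7 had a log2 FC below 0, where 7395 of all 14282 tested genes were above 0. The median was -0.10 for the 10 genes and 0.02 over all tested genes. The genes were chosen with earlier results of these birds known, and MLKL is on the study's own list of differing genes, so these counts are not independent evidence. The study called MLKL higher in the low-FCR group with DESeq2. It also assayed MLKL, among other genes, by quantitative PCR on the same RNA and reported concordant patterns for the genes assayed.

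**Figure D1:**
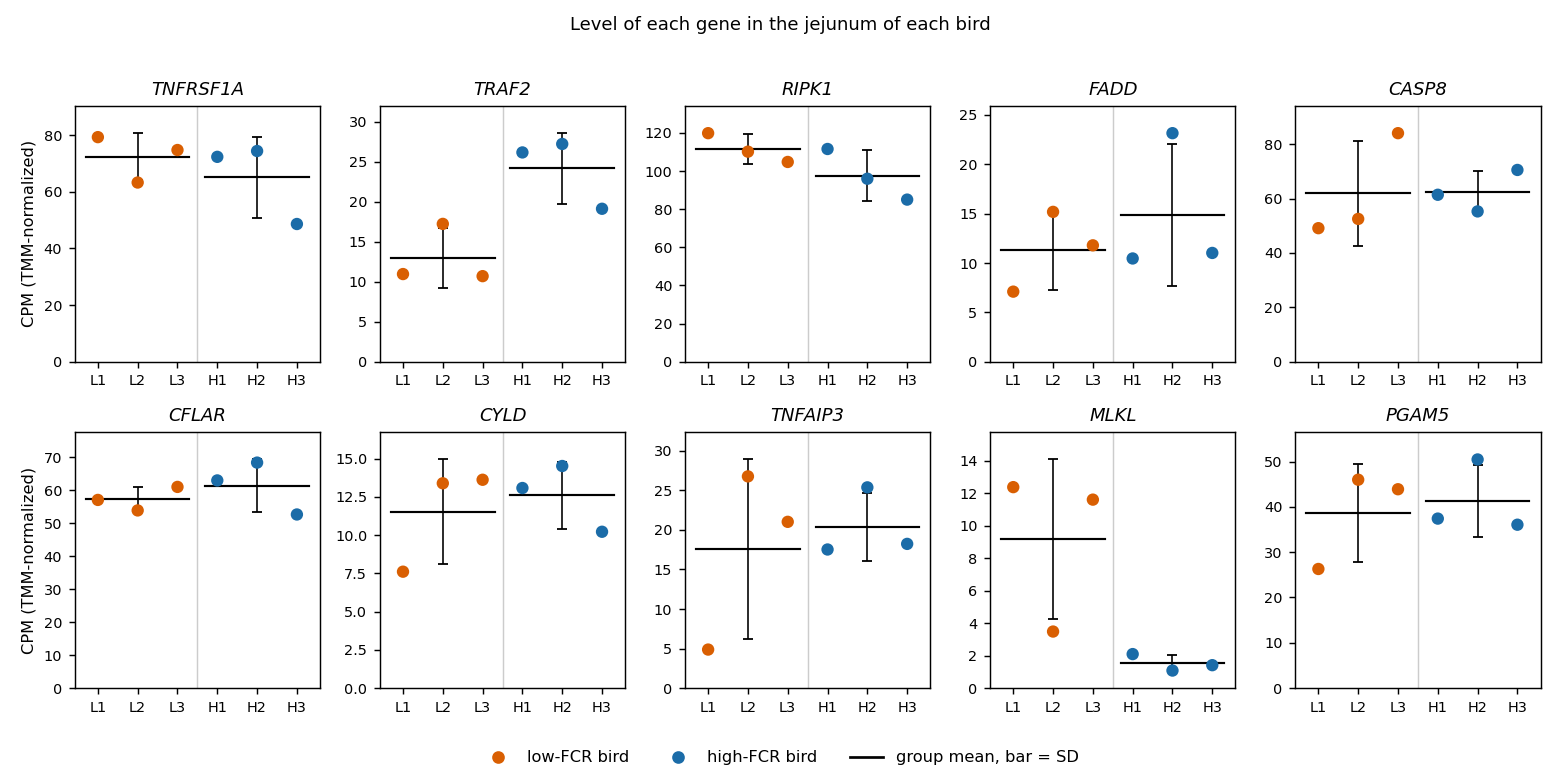
Level of the 10 genes in each of 6 birds, in CPM on linear axes that start at 0, with low-FCR birds (orange) left of high-FCR birds (blue), the group mean as a line and the SD as a bar (n = 3 birds in each). MLKL is at 3.48 to 12.4 CPM in the low-FCR birds and 1.08 to 2.09 CPM in the high-FCR birds, TRAF2 is at 17.2 CPM or less in the low-FCR birds and at 19.1 CPM or more in the high-FCR birds, and the groups overlap in the other 8 genes.

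Levels of different genes were compared per length, as the deposited FPKM. CASP8 and RIPK1 were the most abundant, at 38.0 ± 9.56 and 37.3 ± 3.81 FPKM (SD, n = 6 birds in each case). Their order changed from bird to bird, with CASP8 above RIPK1 in 2 of 6 birds, so these neighbors did not differ beyond their spread. PGAM5 followed at 23.9 ± 6.26 FPKM, TNFRSF1A at 21.1 ± 3.59 FPKM and CFLAR at 20.2 ± 3.08 FPKM. These 3 also changed places among the birds, while RIPK1 was above PGAM5, and CFLAR above FADD, in 6 of 6 birds. The lower group held FADD at 10.7 ± 5.02 FPKM, TRAF2 at 8.40 ± 3.56 FPKM, TNFAIP3 at 7.92 ± 3.41 FPKM, CYLD at 4.33 ± 1.15 FPKM and MLKL at 2.99 ± 2.86 FPKM. MLKL was thus the scarcest on average, but its place depended on the bird. MLKL ranked last of the 10 in L2 and in all of the high-FCR birds, sixth in L1 and eighth in L3.

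MLKL encodes the pseudokinase that, in mammals, permeabilizes the membrane in necroptosis. The gene (ENSGALG00000002766) lies on the minus strand of chromosome 11 (GRCg6a), between 1886612 and 1890948. MLKL stood at 12.4, 3.48 and 11.6 CPM in the low-FCR birds, against 2.09, 1.08 and 1.41 CPM in the high-FCR birds. The high values belong to L1 and L3, and L2 lay 1.66 times above H1, the highest of the high-FCR birds. These levels rest on 122, 39 and 127 counts in the low-FCR libraries and on 24, 13 and 16 counts in the high-FCR libraries. The group means were 9.16 ± 4.93 CPM for low-FCR birds and 1.53 ± 0.517 CPM for high-FCR birds (SD, 3 birds per group), which differ 6.0-fold. The log2 FC was 2.58 (SE 0.59) with an unadjusted p of 0.00183 and an adjusted p of 0.997 by edgeR.

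The difference in MLKL kept its direction in all 16 alternatives, with log2 FCs of 1.85 to 2.94. DESeq2 called MLKL at an adjusted p of 0.0284, 1 of 8 genes called among the 14282 (0.0560%), and the replicate block called 2 genes (0.0140%), none of them among the 10, while the adjusted p of MLKL ranged from 0.0284 to 1 over the alternatives. Without L1 the log2 FC was 2.29 and without L1 and H3 it was 2.25, and it was 2.18 if H3 is counted as low-FCR. Among the birds with 5-digit numbers alone, all of the low-FCR birds lay above H1, the only high-FCR bird of that series. H2 and H3 carry shorter numbers, so an adjustment for the series sets the low-FCR birds against H1 alone. Adjusted for this bird-number series, the log2 FC was 2.12 and the unadjusted p became 0.0522.

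L1 and L3, the birds with the most MLKL, also had the highest summed level of enteric neuron markers. The 5 listed markers of enteric neurons summed to 45.3, 10.3 and 32.6 CPM in the low-FCR birds and to 17.6, 9.63 and 15.3 CPM in the high-FCR birds, with all 5 tested and none at 0 in any bird. L2, with more MLKL than any high-FCR bird, had a lower neuron sum than H1 and H3. The 3 listed erythrocyte markers summed to 26.3, 18.8 and 26.7 CPM in the low-FCR birds and to 7.06, 10.6 and 17.2 CPM in the high-FCR birds, so L1 and L3 were again highest and here the groups did not overlap. Nearly all of that sum was the hemoglobin gene HBA1, with a log2 FC of 1.04 (SE 0.38), the only 1 of the 3 that was tested. HBBA and HBE1 had at most 3 counts in any bird, so the sum stands for 1 gene. The 3 listed ileal markers summed to 4829, 78.9 and 491 CPM in the low-FCR birds and to 270, 717 and 55.2 CPM in the high-FCR birds. By this sum L1 was highest and H2 next, but FABP6 made up most of it in L1. SLC10A2 was highest in L3, at 121 CPM, against 47.4 CPM in L1 and 21.7 CPM in H2, and had 0 counts in L2. SLC51A was at 195 CPM in L1, 41.2 CPM in L3 and 42.3 CPM in H2. The mean deviation of the 3 markers, on log2(CPM + 0.5), was 2.80 in L1, 1.23 in L3, 0.759 in H2 and -2.71 in L2. The part of these markers in the difference in MLKL was not tested. On either side of MLKL the nearest genes overlapped between the groups. FA2H, which hydroxylates fatty acids and ends 1423 bases away, was at 76.1, 103 and 56.4 CPM in the low-FCR birds and 80.0, 72.9 and 44.0 CPM in the high-FCR birds. RFWD3, a ubiquitin ligase of DNA repair 980 bases away on the other side, was at 22.6, 13.1 and 15.3 CPM in the low-FCR birds and 14.0, 19.1 and 18.6 CPM in the high-FCR birds, with a log2 FC of -0.02 (SE 0.32). No gene span overlapped that of any of the 10 genes, so reads of an antisense partner in the annotation do not enter these counts.

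Among the tested genes with a symbol, those whose scaled log2 CPM profile over the 6 birds lay nearest to that of MLKL were B3GALNT2, PLA1A and MALSU1, at Euclidean distances of 0.364, 0.376 and 0.406. PLA1A, a phospholipase, was at 3.04, 1.61 and 3.38 CPM in the low-FCR birds and 1.57, 1.08 and 1.23 CPM in the high-FCR birds. B3GALNT2, a glycosyltransferase, was at 38.9 ± 3.54 CPM for low-FCR birds and 29.4 ± 1.98 CPM for high-FCR birds (SD, 3 birds per group), a log2 FC of 0.41 (SE 0.23), so a like profile here does not mean a like size of difference. In all 3 genes the highest bird was L3 and the lowest was H2.

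PGAM5 encodes a mitochondrial phosphatase that has been placed downstream of the necroptosis kinases in human cells. Its level was 26.3, 46.0 and 43.9 CPM in the low-FCR birds, against 37.4, 50.4 and 36.0 CPM in the high-FCR birds. L1 was the lowest bird and the groups overlapped. The log2 FC of -0.09 (SE 0.29) was far inside the spread between birds and became 0.12 without L1. In CPM, L1 was the highest bird for MLKL and the lowest for PGAM5, and H2 was the lowest for MLKL and the highest for PGAM5. In FPKM the highest bird for MLKL was L3, at 7.02 against 6.2 in L1, and the other 3 placings were the same. Over all tested genes, in CPM, L1 was highest in 26.1% and lowest in 27.9%, and H2 was highest in 17.4% and lowest in 15.5%. Whether the levels of MLKL and PGAM5 are related was not tested.

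TNFRSF1A, on chromosome 1, encodes the receptor itself. It was at 79.3, 63.3 and 74.8 CPM in the low-FCR birds and 72.4, 74.4 and 48.6 CPM in the high-FCR birds. H3 stood lowest and the other 5 birds lay within 63.3 to 79.3 CPM. With a log2 FC of 0.15 (SE 0.24) over 6 birds, -0.02 if H3 is left out and -0.14 if H3 is counted as low-FCR, no direction can be given for the receptor.

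TRAF2 encodes the adaptor that recruits the ubiquitin ligases cIAP1 and cIAP2 to TNF receptors. The gene (ENSGALG00000042838) lies on the minus strand of chromosome 17 from 895590 to 912182. It was at 10.96, 17.2 and 10.7 CPM in the low-FCR birds, against 26.2, 27.2 and 19.1 CPM in the high-FCR birds. The groups did not overlap, although L2 and H3 came close, with H3 only 1.11 times above L2. The group means were 12.96 ± 3.70 CPM for low-FCR birds and 24.2 ± 4.40 CPM for high-FCR birds (SD, 3 birds per group), a log2 FC of -0.90 (SE 0.32) with an unadjusted p of 0.0219 and an adjusted p of 0.997 by edgeR. The log2 FC lay between -1.18 and -0.78 over all 16 alternatives, and in 12 of them the unadjusted p was under 0.05. That p was 0.0591 without L3, 0.0686 without H1, 0.0720 without H2 and 0.0687 when adjusted for the bird-number series. T-cell markers lay in the same direction, as all 8 of them had a log2 FC below 0, and they summed to 667, 1279 and 1073 CPM in the low-FCR birds and to 1180, 1078 and 1922 CPM in the high-FCR birds. Bird by bird the orders differed in part. H3 had the highest T-cell sum but the least TRAF2 of the high-FCR birds, and L2 had a higher sum than H1 and H2. Among the low-FCR birds, L2 was highest in both. The part of T cells in the TRAF2 result was not tested. Of the 9 other genes listed within 30 kb of TRAF2, the nearest on either side, EDF1 and FBXW5, had log2 FCs of 0.10 (SE 0.28) and 0.06 (SE 0.21). Farther off, 20804 bases away, PTGDS had a log2 FC as large as that of TRAF2, at -0.96 (SE 0.49), with overlapping groups at 50.8, 15.3 and 28.1 CPM in the low-FCR birds and 33.9, 92.6 and 56.7 CPM in the high-FCR birds. The groups also did not overlap in ENSGALG00000030913, which was below the filter, at 7, 2 and 10 counts in the low-FCR birds and 11, 36 and 11 counts in the high-FCR birds.

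Per unit of receptor transcript, the adaptor was again lower in the low-FCR birds. The ratio of TRAF2 to TNFRSF1A in FPKM, which does not depend on the scaling between libraries, was 0.202, 0.397 and 0.208 in the low-FCR birds, against 0.527, 0.533 and 0.573 in the high-FCR birds. The high-FCR birds lay within a narrow range and all of the low-FCR birds lay below it. The ratio was 0.269 ± 0.111 for low FCR and 0.544 ± 0.0250 for high FCR (SD, 3 birds per group; exact permutation test on log2 ratios, two-sided, p = 0.10, the smallest that 3 birds against 3 allow, and 0.15 after Benjamini-Hochberg adjustment over 3 ratios). The ratios were chosen after the values had been seen. TRAF2 alone already did not overlap and TNFRSF1A differed little, so this test adds no support beyond the values of TRAF2.

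**Figure D2:**
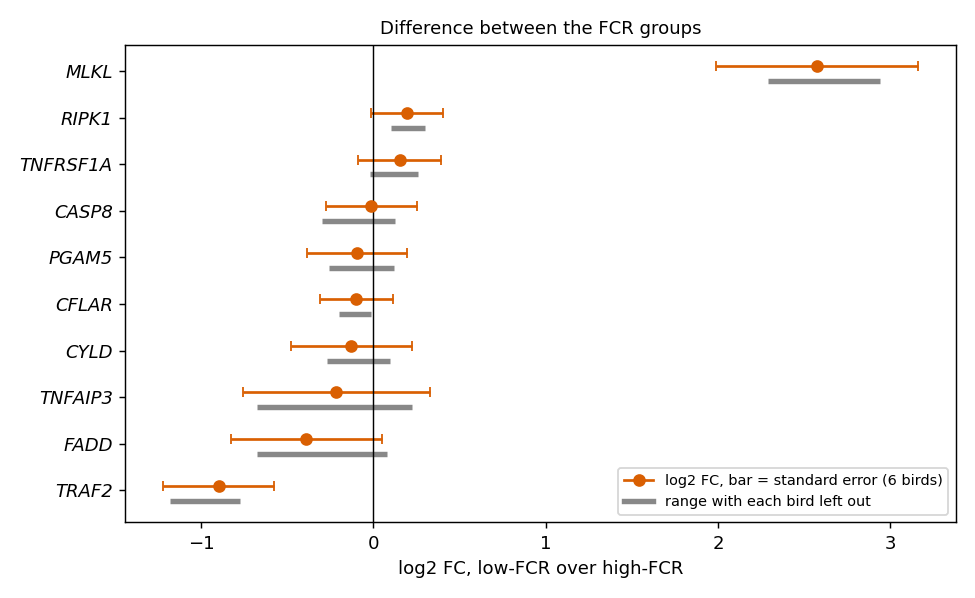
Log2 FC of the low-FCR over the high-FCR group for the 10 genes (points, with the standard error as a bar, 6 birds) and the range of the log2 FC when each bird is left out in turn (gray). MLKL stays between 2.29 and 2.94 and TRAF2 between -1.18 and -0.78, CFLAR and RIPK1 keep their sign close to 0, and the ranges of the other 6 genes cross 0.

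RIPK1, on chromosome 2, encodes the kinase and scaffold at the branch between survival and death. It was at 120, 110 and 105 CPM in the low-FCR birds, against 112, 96.0 and 85.0 CPM in the high-FCR birds. The spread was small, with the highest bird 1.41 times above the lowest, and only H1 reached into the range of the low-FCR birds. The log2 FC was 0.19 (SE 0.21), between 0.105 and 0.302 with each bird left out, 0.0162 if H3 is counted as low-FCR and 0.000165 when adjusted for the bird-number series.

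FADD, on chromosome 5, encodes the adaptor that brings caspase 8 into death complexes. It was at 7.10, 15.2 and 11.8 CPM in the low-FCR birds and 10.5, 23.2 and 11.02 CPM in the high-FCR birds. H2 stood well above the others and L1 below them, so the highest bird had 3.26 times the level of the lowest. The log2 FC of -0.39 (SE 0.44) rested on H2 and became 0.08 without it.

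CASP8 encodes the initiator caspase of the death receptors, and CFLAR its catalytically inactive relative c-FLIP, which restrains or shapes caspase 8 activity. CASP8 was at 49.1, 52.5 and 84.0 CPM in the low-FCR birds, against 61.4, 55.3 and 70.5 CPM in the high-FCR birds, with L3 highest and L1 lowest. Its log2 FC was -0.01 (SE 0.26). In CPM, CFLAR was the most even of the 10 genes, with the highest bird 1.30 times above the lowest. It was at 57.1, 53.9 and 61.1 CPM in the low-FCR birds and 63.0, 68.5 and 52.7 CPM in the high-FCR birds. In FPKM the spread relative to the mean was smaller for RIPK1, at 37.3 ± 3.81, than for CFLAR, at 20.2 ± 3.08 (SD, 6 birds). The log2 FC of CFLAR was -0.10 (SE 0.21) and lay between -0.23 and -0.01 in all 16 alternatives.

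The balance of caspase 8 to its regulator varied within each group more than between the groups. The ratio of CASP8 to CFLAR in FPKM was 1.55, 1.75 and 2.47 in the low-FCR birds and 1.75, 1.45 and 2.41 in the high-FCR birds. The highest values thus came from 1 bird of each group, L3 and H3. The means were 1.92 ± 0.487 for low FCR and 1.87 ± 0.488 for high FCR (SD, 3 birds per group; exact permutation test, two-sided, p = 0.80, adjusted p = 0.80). The ratio of MLKL to CASP8 in FPKM was 0.239, 0.0631 and 0.131 in the low-FCR birds and 0.0323, 0.0185 and 0.0189 in the high-FCR birds. Here the groups did not overlap (exact permutation test, two-sided, p = 0.10, the smallest possible, n = 3 birds in each, and 0.15 after adjustment over the 3 ratios). MLKL alone already did not overlap and CASP8 differed little, and the ratio was chosen after these values had been seen. The test of this ratio therefore adds no support beyond the values of MLKL.

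CFLAR and CASP8 are neighbors on chromosome 7, where CFLAR, CASP10, CASP18 and CASP8 follow each other on the plus strand within 55.3 kb, from 11400646 to 11455934. CASP10 encodes another initiator caspase, and CASP18 a related caspase of birds that placental mammals lack. CASP18 was at 84.3, 90.0 and 68.0 CPM in the low-FCR birds, against 53.4, 50.2 and 52.7 CPM in the high-FCR birds. All of the low-FCR birds lay above all of the high-FCR birds, which were tightly grouped. The log2 FC was 0.63 (SE 0.21), with an unadjusted p of 0.0149 and an adjusted p of 0.997 by edgeR. It lay between 0.51 and 0.74 in all 16 alternatives, and in 11 of them the unadjusted p was under 0.05. That p was 0.0578 without L2, 0.0509 without H2, 0.0613 without L1 and H3, 0.0969 if H3 is counted as low-FCR and 0.128 when adjusted for the bird-number series. CASP10, between CFLAR and CASP18, was at 17.8, 42.5 and 30.5 CPM in the low-FCR birds and 34.7, 26.0 and 36.6 CPM in the high-FCR birds, with a log2 FC of -0.10 (SE 0.34). Of these 4 adjacent genes, CASP18 was the only 1 in which the groups did not overlap, as was so in 6.36% of all tested genes.

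**Figure D3:**
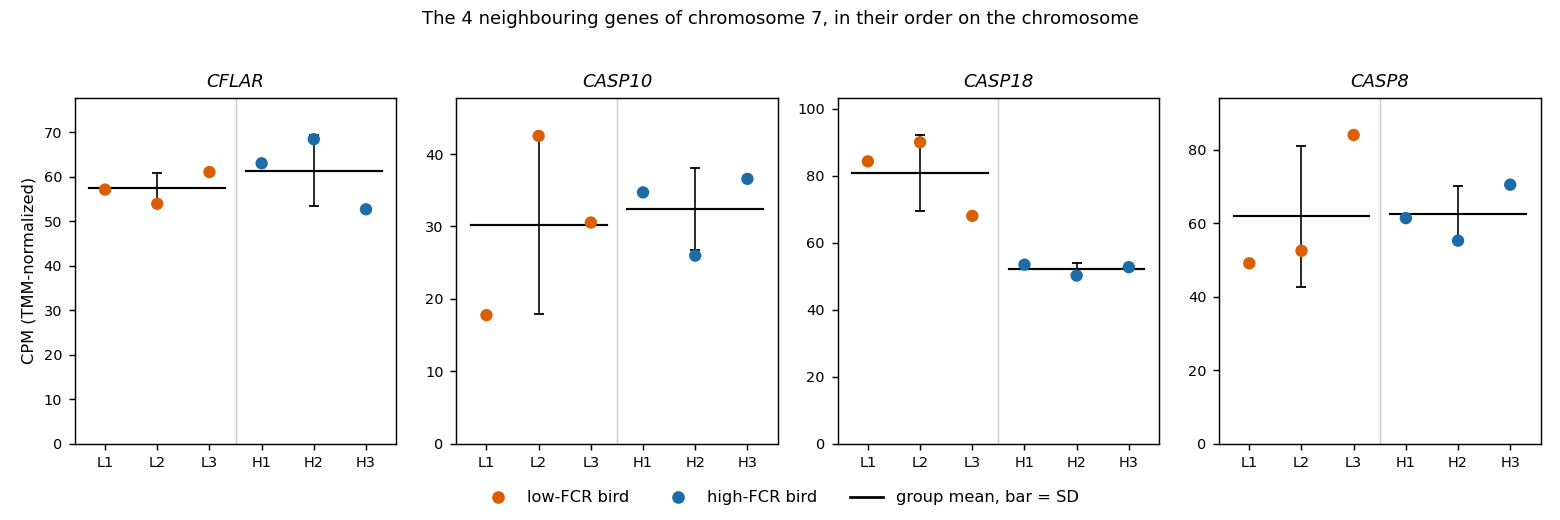
CPM of CFLAR, CASP10, CASP18 and CASP8 in each bird, in their order along chromosome 7, with low-FCR birds left of high-FCR birds and the group mean and SD (n = 3 birds in each) on linear axes that start at 0. CASP18 lies at 68.0 CPM and above in the low-FCR birds and at 53.4 CPM and below in the high-FCR birds, and the other 3 genes overlap.

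CYLD and TNFAIP3 encode enzymes that remove or edit ubiquitin chains on RIPK1 and its partners, and TNFAIP3, known as A20, is itself induced by NF-kappaB. CYLD, on chromosome 11, was at 7.61, 13.4 and 13.6 CPM in the low-FCR birds, against 13.1, 14.5 and 10.2 CPM in the high-FCR birds. Its log2 FC of -0.13 (SE 0.35) became 0.10 without L1, the lowest bird. TNFAIP3, on chromosome 3, was at 4.87, 26.8 and 21.0 CPM in the low-FCR birds and 17.5, 25.4 and 18.2 CPM in the high-FCR birds. L1, with 48 counts, stood apart from the other 5 birds, which had 201 to 306. The log2 FC was -0.21 (SE 0.54) and became 0.23 without L1. NFKBIA and NFKBIZ, which NF-kappaB also induces, had the opposite extreme in L1. NFKBIA was at 254, 160 and 178 CPM in the low-FCR birds and at 153, 129 and 175 CPM in the high-FCR birds. NFKBIZ was at 367, 193 and 205 CPM in the low-FCR birds and 182, 125 and 219 CPM in the high-FCR birds.

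In CPM, L1 was the lowest bird for 5 of the 10 genes (PGAM5, FADD, CASP8, CYLD and TNFAIP3). It was the highest for 3 (MLKL, RIPK1 and TNFRSF1A). In FPKM the highest bird for MLKL was L3, at 7.02 against 6.2 in L1. For RIPK1 it was H1 (41.4 against 37.2 in L1) and for TNFRSF1A it was H2 (24.2 against 21.1 in L1). L1 was still lowest in FPKM for the 5 genes named first, and also for CFLAR and TRAF2. Over all tested genes, in CPM, L1 was lowest in 27.9% and highest in 26.1%, more often than any other bird in either case. Also in CPM, H2 was the highest bird for 5 of the 10 genes and H3 the lowest for 3, against 2489 and 1854 of the 14282 tested genes. The median deviation of the 10 genes from their mean over the birds, on log2(CPM + 0.5), was -0.44, 0.03 and 0.15 in the low-FCR birds and 0.07, 0.25 and -0.16 in the high-FCR birds. L1 also had the highest summed level of the 7 smooth muscle markers, at 19030 CPM, against 4744 and 7328 CPM in L2 and L3 and 6084 to 12350 CPM in the high-FCR birds. Its T-cell marker sum was the lowest, and the part of either cell type in the levels of L1 was not tested.

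**Figure D4:**
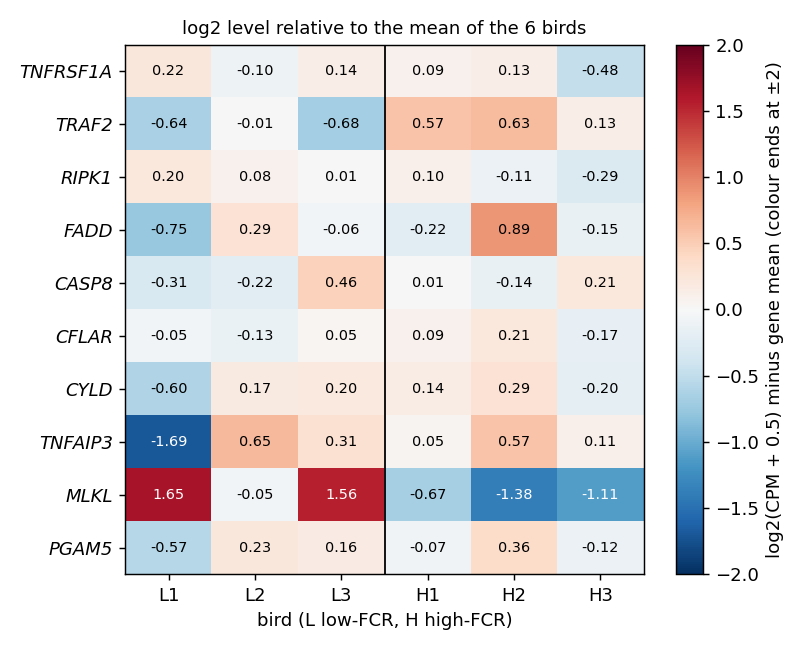
Deviation of each gene from its mean over the 6 birds, on log2(CPM + 0.5), with the low-FCR birds left of the high-FCR birds (red higher, blue lower, colors end at 2 in either direction). MLKL runs from 1.65 in L1 to -1.38 in H2, TNFAIP3 is at -1.69 in L1 alone, and CFLAR and RIPK1 stay within 0.29 of 0.

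Further genes of these pathways were taken from 9 lists that name 91 genes. Of these, 76 were listed by symbol and tested. The other 15 had no entry under the symbol searched and were not analyzed here, although they may be listed under another name or without a symbol. Those not analyzed include TNF, RIPK3, the kinase of MLKL in mammals, and ZBP1, a sensor upstream of RIPK3. By edgeR, 0 of the 76 passed adjustment. At an unadjusted p under 0.05 there was 1 gene with higher and 1 with lower levels (2.02% and 1.22% of all tested genes). In CPM the groups did not overlap in 6 (RIPK4, CASP18 and MCL1 above, TNFSF15, TLR3 and SHARPIN below). In FPKM, RIPK4 and MCL1 overlapped. The genes at an unadjusted p under 0.05 and those not overlapping in CPM made up 2.63% and 7.89% of the 76 genes. Over all tested genes the shares were 3.24% and 6.36%, so both lay near the background. The median log2 FC was -0.05.

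The lower gene was TLR3, of the list of kinases and sensors of necroptosis, a receptor for double-stranded RNA that can start necroptosis in mammals through TICAM1. It was at 16.0, 34.5 and 19.7 CPM in the low-FCR birds, against 48.6, 42.2 and 48.7 CPM in the high-FCR birds, with no overlap. The log2 FC was -0.99 (SE 0.32) with an unadjusted p of 0.0134 and an adjusted p of 0.997 by edgeR. When adjusted for the bird-number series the log2 FC was -1.05 (SE 0.47, unadjusted p 0.0552). It was smaller without L1 and H3, at -0.74 (SE 0.36, unadjusted p 0.0809), and if H3 is counted as low-FCR, at -0.61 (SE 0.43, unadjusted p 0.194). TLR3 is induced by interferon in many cells, and all 10 measured genes of the interferon response had a log2 FC below 0, with summed levels of 1502, 3386 and 2243 CPM in the low-FCR birds and 5457, 3029 and 8303 CPM in the high-FCR birds. The part of that response in the TLR3 result was not tested. In the same list, RIPK4 encodes a kinase of epithelial differentiation. It was at 36.5 to 47.2 CPM in the low-FCR birds and 21.3 to 35.9 CPM in the high-FCR birds. Its log2 FC was 0.39 (SE 0.28). In FPKM the groups overlapped for RIPK4, with L1 at 12.3 against 14.1 in H1 and 14.8 in H2. H3 was the lowest bird, and the log2 FC of RIPK4 was 0.18 without H3 and 0.0021 if H3 is counted as low-FCR.

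Of the 10 tested ligands and receptors, 5 had a log2 FC above 0 and 5 below. TNFSF15, a cytokine of the gut that signals through TNFRSF25, was at 5.48, 9.11 and 6.86 CPM in the low-FCR birds and at 9.33, 11.37 and 14.4 CPM in the high-FCR birds, with a log2 FC of -0.71 (SE 0.36). TNFRSF6B, a decoy receptor, had a log2 FC of 1.19 (SE 0.65) that rested on 89.0 CPM in L1 and became 0.0065 without it. The list of ubiquitin ligases and adaptors had all 8 tested genes below 0, with a median log2 FC of -0.30. L1 was the lowest bird in all 8, as it was in 36 of the 76 genes and in 27.9% of all tested genes. TRAF5 had a log2 FC of -0.60 (SE 0.33) and TRAF1 one of -0.46 (SE 0.30), and both overlapped between the groups. Of the 8 genes of ubiquitin editing, the log2 FC of TNIP3 was -0.73 (SE 0.49) but 0.26 if H3 is counted as low-FCR, and that of TNIP1 was 0.19 (SE 0.26).

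Genes of NF-kappaB and its inhibitors lay mostly on the other side, with 6 of 7 log2 FCs above 0 and a median of 0.32. NFKBIZ and NFKBIA had log2 FCs of 0.54 (SE 0.33) and 0.37 (SE 0.26), which were 0.18 and 0.14 without L1, the highest bird for both. Of the 9 kinases that lead to NF-kappaB, 3 were above 0 and 6 below, and TBK1 and MAP3K14 had log2 FCs of -0.36 (SE 0.24) and -0.38 (SE 0.26). Of the 7 tested caspases outside the 10 genes, only CASP18 did not overlap between the groups (6.36% of all tested genes did not). Of the 12 genes of mitochondrial apoptosis, BCL2A1, a survival factor, had a log2 FC of -0.74 (SE 0.36) and APAF1, the core of the apoptosome, one of -0.89 (SE 0.50). APAF1 was at 8.83 CPM in L1 and 12.8 CPM in L3, and at 38.5 CPM in L2 and 32.8 to 41.7 CPM in the high-FCR birds, so L2 lay among the high-FCR birds. MCL1, another survival factor, was at 537 to 586 CPM in the low-FCR birds and 411 to 518 CPM in the high-FCR birds. Its log2 FC was 0.28 (SE 0.23). In FPKM the groups overlapped for MCL1, with L1 at 179 and H3 at 182. The 7 tested genes of membrane repair, part of the ESCRT machinery that counters MLKL pores in mammals, had a median log2 FC of 0.05. PDCD6 had the highest, at 0.38 (SE 0.25), and TSG101 followed at 0.19 (SE 0.21).

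**Figure D5:**
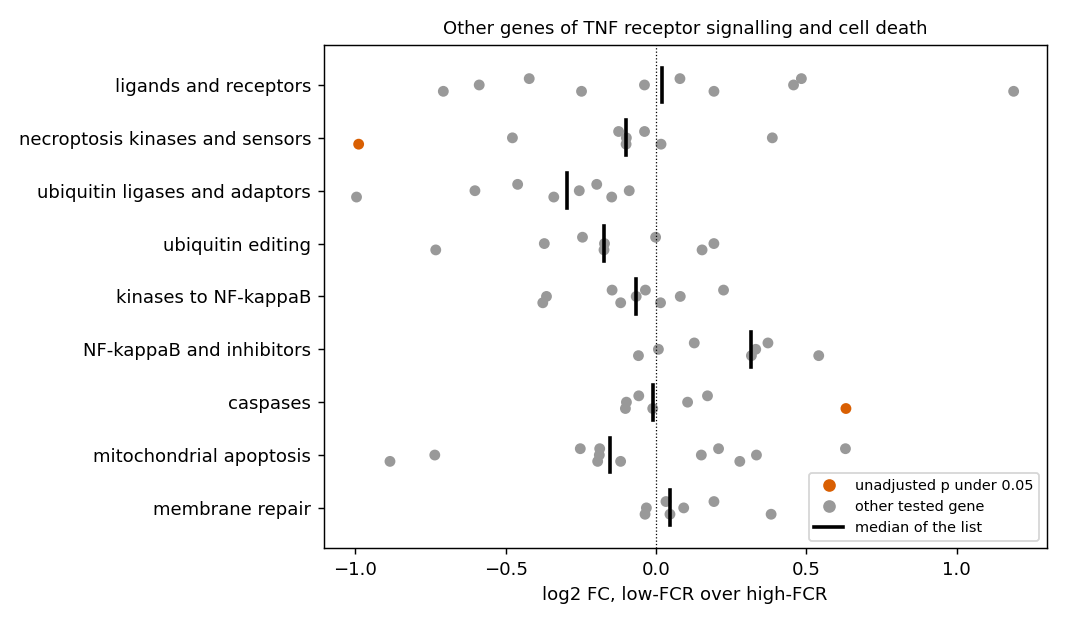
Log2 FC of the low-FCR over the high-FCR group for the 76 tested genes of 9 lists (points, 1 per gene, shifted vertically for legibility) and the median of each list (black line). TLR3 at -0.99 and CASP18 at 0.63 are the genes at an unadjusted p under 0.05 (orange), and the list medians lie between -0.30 and 0.32.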

How the data were processed

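Libraries of poly(A) RNA were made from the jejunum of 6 Korat chickens, each bird giving 1 library. Per the labels and the study's methods, the authors used Cutadapt 1.9.1 for trimming, HISAT2 2.0.1 for alignment (build GRCg6a) and HTSeq 0.6.1 for counting over Ensembl genes. The deposited counts are whole numbers. The deposited FPKM are those counts, divided by the authors by library total and by exonic gene size. Strand settings and the annotation release are not given in the sources used here.

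The counts were analyzed with R 4.3.3 and edgeR 4.0.16 (TMM, quasi-likelihood test, Benjamini-Hochberg over the 14282 genes whose mean FPKM reached 0.5). The standard error is the size of the log2 FC divided by the square root of F. Alternatives used DESeq2 1.42.0, limma 3.58.1 on log2(FPKM + 0.5) or log2(FPKM + 0.1), other scalings, no filter, a block, an adjustment for the bird-number series, another group for H3 and birds left out. L1 and H3 were left out together as an alternative chosen after seeing the data. Total counts ranged from 10436038 to 11370043. Without molecular identifiers, the counts are of reads and not of independent molecules. The members and lists were chosen with earlier results of these data known. The text names all 10 members, the 2 genes of each pathway list with the smallest p and the 3 genes most like MLKL, except for 1 gene that is not reported here. CASP10, MCL1, SHARPIN, HBA1, the neighbors of MLKL and TRAF2, and the 3 ratios were named after their values were seen. The fits were run on simulated counts with planted changes, as a check of the code. Variation between simulated libraries was capped below the common level of these birds, and the planted changes were large. The check therefore does not show how well the fits find differences in these data.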

Additional observations from a re-analysis of the deposited data

How the results depend on the processing

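MLKL, TRAF2, RIPK1 and CFLAR kept their direction in all 16 alternatives. By edgeR 0 genes passed adjustment, with 463 at an unadjusted p under 0.05, against 8 by DESeq2 and 2 with the replicate block. Of the 10 genes, DESeq2 called 1, MLKL. The birds share only a number: deviations of same-numbered birds correlated at 0.185, 0.174 and 0.00539, L3 correlated best with H2, and the block called none of the 10 genes. The count of members at an unadjusted p under 0.05 was 2, but 0 when adjusted for the bird-number series and 1 to 2 with each bird left out (1 without L3, H1 or H2). The count of pathway genes was 2, but 1 with that adjustment, 0 without L1 and H3, and 1 to 10 with each bird left out (10 without L2, 1 without H2). The adjustment for the bird-number series sets the low-FCR birds against H1 alone. With it, log2 FCs turned to 0.05 (PGAM5), 0.119 (FADD), 0.0116 (CASP8), 0.00426 (TNFAIP3) and -0.008 (TNIP1). With H3 grouped as low-FCR they turned to 0.135 (CASP8), -0.142 (TNFRSF1A), 0.00408 (BCL2A1), 0.259 (TNIP3) and -0.00594 (TSG101). Without L1 and H3, an alternative chosen after seeing the data, they turned to 0.041 (PGAM5), 0.235 (CASP8), 0.164 (TNFAIP3), -0.0801 (TNFRSF1A) and 0.116 (TNIP3). With each bird left out, the log2 FC ranged from -0.257 to 0.119 for PGAM5, -0.674 to 0.0816 for FADD, -0.296 to 0.124 for CASP8, -0.269 to 0.0971 for CYLD, -0.674 to 0.227 for TNFAIP3, -0.0184 to 0.26 for TNFRSF1A and -0.00523 to 0.305 for TNIP1. The cause of these changes was not tested. With 3 birds in each group and 13 to 127 counts for MLKL, differences within the standard errors given could not be told from 0. In the main edgeR fit, differences larger than their standard error did not pass adjustment either.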
